A study of Mus musculus with 3 samples.

Results

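The inner root sheath keratins *Krt25*, *Krt26*, *Krt27* and *Krt28* (type I), *Krt71*, *Krt72* and *Krt73* (type II) and the trichohyalin gene *Tchh* were taken by name from a single-cell expression table of mouse back skin. Of these 8 genes, 7 had a row among the 19165 genes of the table, and *Krt26* was not analysed here. Skin of C57BL/6 male mice was dissociated at E13.5, E16.5 and P0, with trypsin/EDTA for the embryonic stages and with collagenase IV at P0, and gave 1 droplet-based 3′ library per stage from pooled skin. The E13.5 library held 5962 cells, the E16.5 library 5208 and the P0 library 5065. Their cells had a median of 7066.5, 11021 and 6797 unique molecular identifiers (UMIs, each marking 1 captured transcript). Since each stage was a single library, stage, digestion and library cannot be told apart, no test was run, and the 95% intervals given (exact Poisson for UMIs, exact binomial for shares of cells) cover counting error only. Between libraries, 44, 41 and 32 cell barcodes were shared (E13.5 with E16.5, E13.5 with P0, E16.5 with P0).

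Keratin filaments assemble from pairs of a type I and a type II protein. The inner root sheath is the rigid sleeve that moulds the growing hair shaft. Its cells arise from the matrix of the hair bulb, switch on their own set of type I and type II keratins, fill with trichohyalin granules and are hardened by transglutaminases and peptidylarginine deiminases, which crosslink and modify trichohyalin and the keratin filaments. *Krt25*, *Krt27*, *Krt28* and *Krt71* are known from all layers of the mature sheath, whereas *Krt26*, *Krt72* and *Krt73* mark its cuticle. Trichohyalin is a fused-type S100 protein that is also known from the medulla of the hair and from other hard epithelia.

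The type I members lay side by side on chromosome 11, in 59.4 kb between positions 99315516 and 99374903 of GRCm38 (GENCODE vM21), all on the minus strand and each with 8 exons. The type II members lay in 68.4 kb of chromosome 15, between 101733949 and 101802346, on the minus strand with 9 exons each. *Tchh* lay on the plus strand of chromosome 3 at 93442330 to 93449077 with 2 exons, and a long non-coding RNA gene overlapped it on the opposite strand. Within the last 500 bases of the transcripts, 27 of 451 50-base words of *Krt27* and 1 of 451 of *Krt28* were also found in *Krt25*. The other 3′ ends, that of *Krt25* among them, shared none with another gene. The effect of the shared words on the counts of *Krt27* and *Krt28* was not tested.

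The 250 bases before the annotated start are shown for the 6 members with UMIs at P0, because 5 of them are keratin genes that are compared below with *Tchh*. Sequences are from RefSeq on GRCm38.p6 and run 5′ to 3′ on the strand of the gene. Capitals mark matches, on either strand, to the TATA box word TATAAA, to the GATA factor word AGATAA, to the LEF/TCF word CTTTGA and to the homeodomain word TAATTG. In *Tchh*, a LEF/TCF match on the other strand overlaps the GATA match.
Krt25 (chr11:99322952-99323201, minus strand): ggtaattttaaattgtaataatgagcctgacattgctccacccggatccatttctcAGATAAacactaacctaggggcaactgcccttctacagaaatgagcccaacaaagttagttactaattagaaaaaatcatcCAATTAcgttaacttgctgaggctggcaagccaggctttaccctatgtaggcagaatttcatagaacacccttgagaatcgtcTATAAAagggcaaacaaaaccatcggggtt
Krt27 (chr11:99351119-99351368, minus strand): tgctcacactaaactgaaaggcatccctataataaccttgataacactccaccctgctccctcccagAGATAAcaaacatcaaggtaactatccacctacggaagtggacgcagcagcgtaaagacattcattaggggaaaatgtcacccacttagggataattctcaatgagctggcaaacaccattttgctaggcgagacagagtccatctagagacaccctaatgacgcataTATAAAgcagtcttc
Krt28 (chr11:99374904-99375153, minus strand): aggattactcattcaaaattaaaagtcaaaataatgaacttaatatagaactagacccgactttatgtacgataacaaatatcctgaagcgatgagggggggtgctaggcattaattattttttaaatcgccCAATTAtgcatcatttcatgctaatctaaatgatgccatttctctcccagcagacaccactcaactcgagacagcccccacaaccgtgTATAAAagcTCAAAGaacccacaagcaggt
Krt71 (chr15:101743098-101743347, minus strand): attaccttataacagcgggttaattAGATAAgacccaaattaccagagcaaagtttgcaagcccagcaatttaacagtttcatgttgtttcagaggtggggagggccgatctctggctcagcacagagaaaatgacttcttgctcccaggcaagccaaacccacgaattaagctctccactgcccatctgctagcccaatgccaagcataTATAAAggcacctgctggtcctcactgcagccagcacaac
Krt73 (chr15:101802361-101802610, minus strand): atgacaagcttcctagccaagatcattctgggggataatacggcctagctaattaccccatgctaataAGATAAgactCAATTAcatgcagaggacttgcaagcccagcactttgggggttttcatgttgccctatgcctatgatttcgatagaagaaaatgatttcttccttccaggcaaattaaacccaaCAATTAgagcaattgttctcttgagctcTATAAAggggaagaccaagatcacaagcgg
Tchh (chr3:93442080-93442329, plus strand): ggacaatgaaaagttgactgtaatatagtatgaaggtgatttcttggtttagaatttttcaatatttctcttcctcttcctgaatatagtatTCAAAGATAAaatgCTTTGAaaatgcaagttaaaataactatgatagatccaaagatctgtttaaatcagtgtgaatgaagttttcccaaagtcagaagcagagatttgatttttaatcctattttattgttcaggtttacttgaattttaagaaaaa
A TATAAA word was found in 7 of the 8 promoters, against 12.4% of all 32817 promoters of the same length, and *Tchh* was the exception. In *Krt25*, *Krt26*, *Krt28* and *Krt73* it began 30 bases before the annotated start, in *Krt71* 40 and in *Krt27* 15 bases before it. In *Krt72* the only match was on the other strand at position -203. AGATAA was found in 5 of 8 promoters (*Krt25*, *Krt27*, *Krt71*, *Krt73* and *Tchh*) against 9.99% of all, TAATTG in 4 of 8 against 7.17%, CTTTGA in *Krt28* and *Tchh* against 13.8%, and the AP-1 word TGANTCA in 0 of 8 against 6.75%. The keratin members are neighbouring genes of 1 family, so their promoters are not independent and these counts are a description.

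To place the members in cells, each library was clustered without the members among its features, and cells named from keratinocyte markers are called epithelial-like (504 E13.5 cells, 954 E16.5 cells and 1587 P0 cells). Levels are given as CPM, the UMIs of a gene over all UMIs of the group on the counts-per-million scale. They count 3′ ends and are not scaled by gene length. The label was checked against its markers. At P0 *Krt14* stood at 4273 CPM in epithelial-like cells and 278 in all other cells, and the fibroblast collagen *Col1a1* at 521 and 7910.

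Keratin members gave few UMIs before birth and many at P0. In E13.5 epithelial-like cells the keratins gave 5 UMIs in all. At E16.5 they gave 32 UMIs in 31 of 954 cells, or 2.11 CPM (1.44 to 2.97). At P0 they gave 1965 UMIs in 349 of 1587 cells, or 94.9 CPM, a ratio to E16.5 of 45.1 (31.8 to 66.1). These P0 cells were shallower than the E16.5 ones, with a median of 9601 against 13605.5 UMIs per cell.

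Among the type I members, *Krt28* had the highest UMI count at P0. It had 3 UMIs in E16.5 epithelial-like cells (0.198 CPM, 0.0407 to 0.577) and 1128 UMIs in 197 cells at P0 (54.5 CPM, 51.4 to 57.8), a ratio of 276 (94.2 to 1340). *Krt27* had 2 UMIs in E13.5, 8 in E16.5 and 301 in P0 epithelial-like cells, where 178 cells held it at 14.5 CPM. *Krt25* had 0 UMIs in E13.5 and E16.5 epithelial-like cells and 180 UMIs in 43 cells at P0. Its P0 level of 8.70 CPM was at least 44-fold higher than the E16.5 limit of 0.198 CPM that a count of 0 allows (3 counts over the group). Without the 5 P0 cells with the most member UMIs it was 3.72 CPM and at least 18.8-fold higher.

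The type II member *Krt71* was the keratin with the most UMIs at E16.5, with 15 UMIs in 15 epithelial-like cells (0.988 CPM, 0.553 to 1.63) and 0 in all other cells. At P0 it gave 279 UMIs in 73 cells, a ratio of CPM to E16.5 of 13.7 (8.13 to 24.7), which was 5.25 without the same 5 cells. *Krt73* gave 3 UMIs at E16.5 and 77 UMIs in 18 cells at P0 (3.72 CPM). *Krt72*, the cuticle keratin that neighbours it, gave 2, 3 and 0 UMIs in the epithelial-like cells of E13.5, E16.5 and P0. The P0 zero allows up to 0.145 CPM and up to 0.189% of cells with a UMI.

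*Tchh* had another course. It was found in epithelial-like cells of every stage, with 19.6 CPM (15.7 to 24.2) in the E13.5, 14.7 CPM (12.8 to 16.7) in the E16.5 and 8.99 CPM (7.74 to 10.4) in the P0 library, and its ratio of P0 to E16.5 was 0.612 (0.501 to 0.747). *Tchh* UMIs were also found outside the epithelium. All other cells of the same libraries had 6.27, 7.09 and 3.51 CPM, and dermal-like cells alone had 7.87, 9.08 and 4.46 CPM. As a background for epithelial RNA in other cells, their *Krt14* level was 3.05%, 4.11% and 6.49% of the epithelial-like level in the E13.5, E16.5 and P0 libraries, while for *Tchh* it was 32.0%, 48.3% and 39.1%. After each cell was thinned to 3500 UMIs, 4.82% of E16.5 epithelial-like cells (3.55 to 6.38) and 3.04% of E16.5 dermal-like cells (2.48 to 3.69) held a *Tchh* UMI. At E13.5 the 2 epithelial-like clusters differed, with 75 UMIs in 313 cells of the first (28.4 CPM, 22.3 to 35.6) and 11 UMIs in 191 cells of the other (6.32 CPM, 3.15 to 11.3).

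**Figure D1:**
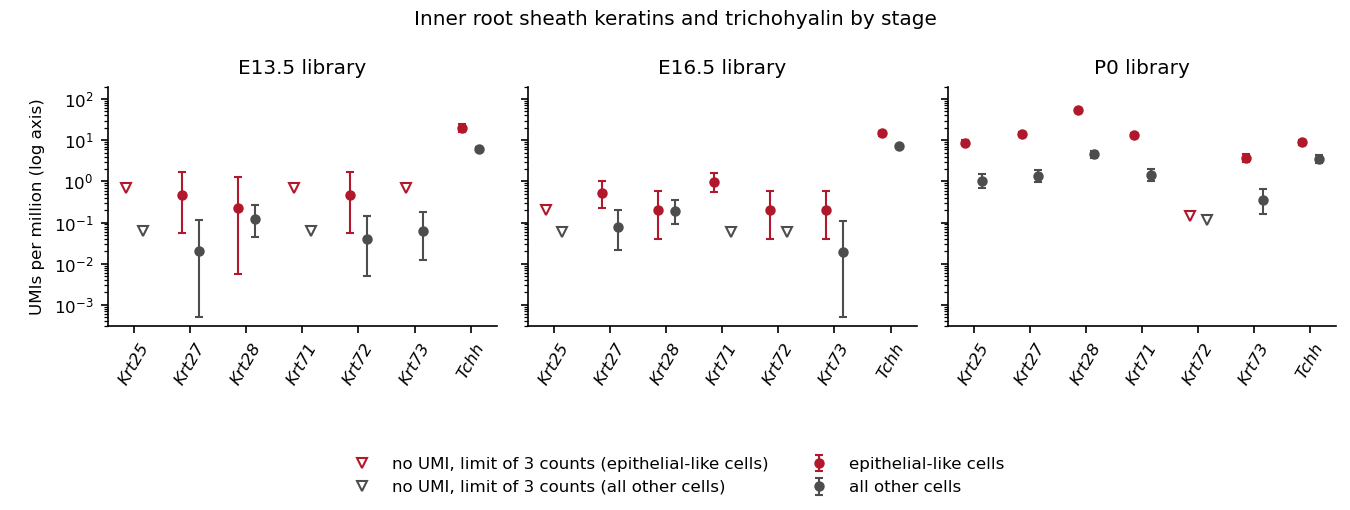
CPM (log axis) of the 7 members with a row, in epithelial-like cells (red) and all other cells (grey) of each stage's library, with exact Poisson 95% intervals. Open triangles mark 0 UMIs and stand at the limit of 3 counts. *Tchh* is the only member between 3.51 and 19.6 CPM in all 6 groups, while the keratins other than *Krt72* reach 3.72 to 54.5 CPM in P0 epithelial-like cells.

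At P0 the members were mostly, but not wholly, in epithelial-like cells. Summed over the members these cells held 104 CPM (99.6 to 108) and all other P0 cells 12.3, a log2 difference of 2.35 after adding 10 to each CPM. Of the 6 members with at least 50 UMIs, 3 were at least 2-fold higher in epithelial-like cells (*Krt28* by 2.15, *Krt27* by 1.11 and *Krt71* by 1.04 on the log2 scale), where 3.93% of 12934 genes were. Without the 5 epithelial-like cells with the most member UMIs, *Krt27* was at 12.5 and *Krt71* at 5.19 CPM, against 1.39 and 1.43 in other cells. With 10 added both were then under 2-fold, while *Krt28* (42.9 against 4.56 CPM) stayed above it. The low counts of *Krt25* (180 against 27 UMIs), *Krt73* (77 against 9) and *Tchh* (186 against 91) left them under this fold on the scale used. Keratin UMIs were found in 3.22% of the other cells (median 6190 UMIs per cell) and in 22.0% of epithelial-like cells (median 9601), and after thinning in 1.41% and 12.3%. *Krt28* took 37.1% of the member UMIs outside the epithelium and 52.4% inside, and *Krt25* 8.49% and 8.37%. *Tchh* took 28.6% outside and 8.65% inside, and was found in 1.18% of other cells and 3.28% of epithelial-like cells after thinning.

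Within the P0 epithelial-like cells the keratin UMIs sat in few cells. A median positive cell held 1 UMI of *Krt25*, *Krt27* or *Krt71*, 2 of *Krt73* and 3 of *Krt28*. The 5 cells with the highest counts of each gene held 68.3% of the *Krt25*, 68.8% of the *Krt71* and 67.5% of the *Krt73* UMIs, but 17.3% of *Krt27* and 23.6% of *Krt28*. *Tchh* was the most scattered, with 15.6% in 5 cells and a single UMI in 110 of its 135 cells. Over all members, 5 cells of 26619 to 89784 UMIs held 605 of 2151 member UMIs (28.1%), and without them the summed level was 75.6 CPM. No member was seen in 1127 cells, 1 in 325, 2 in 101, 3 in 25, 4 in 5, 5 in 2 and 6 in 2 cells.

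The P0 epithelial-like cells were clustered again alone, into 13 sub-clusters, again without the members. Sub-cluster 8 (113 cells, 7.12% of the class) was led by *Msx1*, *Krt35* and *Mt4*, with *Msx2* and *Dlx3*, and was named matrix-like from its markers. The same rule named sub-cluster 3 matrix-like. No sub-cluster was named inner root sheath. *Msx1*, *Msx2* and *Dlx3* are homeodomain factors of the hair matrix and the keratin *Krt35* belongs to the hair shaft. Sub-cluster 8 held 81.1% of the *Krt25* UMIs, 80.7% of *Krt28*, 65.2% of *Krt71*, 55.8% of *Krt73* and 51.8% of *Krt27*, but 5.91% of *Tchh*. *Krt28* stood there at 771 CPM (722 to 823), close to *Krt17* at 782 CPM (732 to 834) and above *Krt5* at 560 CPM, and was found in 97 of 113 cells. *Krt27* was found in 72 of these cells and *Krt25* in 29. *Krt71* was found in 10 cells and *Krt73* in 6. In both, 5 cells held nearly all UMIs (174 of 182 for *Krt71* and 42 of 43 for *Krt73*), and without those cells, a choice made after seeing the data, *Krt71* went from 154 to 7.67 CPM, under its level in sub-cluster 11 given below, and *Krt73* from 36.4 to 0.960 CPM.

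The other sub-clusters held the members in different mixtures. By their markers 3 was matrix-like, 5 cycling, 11 outer root sheath-like, 4 companion or upper follicle-like and 0 basal-like. *Krt27* and *Krt28* without *Krt25* were found in sub-cluster 5, led by *Sp5* and *Shh*, with 18.7 and 41.5 CPM and 0 *Krt25* UMIs in 131 cells. Sub-cluster 3, led by *Shh*, had 16.0 CPM of *Krt27* and 16.6 of *Krt28*. *Krt71* led in sub-cluster 11, whose first genes were *Sfrp1* and *Shisa2*, with 31.7 CPM (19.6 to 48.4) in 14 of 62 cells against 3.01 CPM of each type I member. Sub-cluster 4, led by *Krt79*, a keratin of the upper follicle, held the members at like levels, from 6.16 CPM of *Krt73* to 11.6 CPM of *Krt27*, with *Krt71* slightly above. A single cell of 89784 UMIs held all 21 of its *Krt25* UMIs, 23 of its 34 *Krt27*, 24 of its 35 *Krt71* and 10 of its 31 *Tchh* UMIs. *Tchh* was highest in the suprabasal-like sub-cluster 7 (22.7 CPM, 16.1 to 31.2) and in sub-cluster 0, led by *Ccer2* and globin genes (19.8 CPM, 14.3 to 26.8), where the keratin members were between 0 and 2.99 CPM. Sub-cluster 1 was led by muscle genes and sub-cluster 9 by collagen genes. Both are left unnamed here although their markers gave outer root sheath, and the results without them are given in the closing section.

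**Figure D2:**
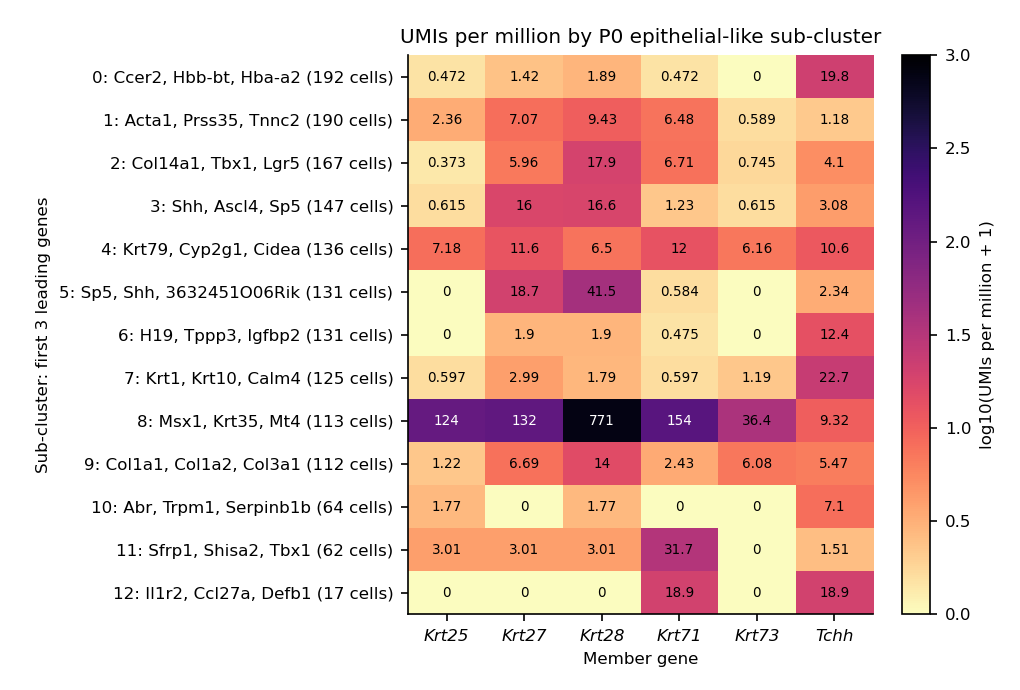
CPM of the 6 detected members (columns) in the 13 sub-clusters of P0 epithelial-like cells (rows, with the first 3 leading genes and the number of cells). Colour is log10 of CPM plus 1. The keratins are highest in sub-cluster 8 at 36.4 to 771, with *Krt71* and *Krt73* nearly all in 5 cells each, while *Tchh* is at 9.32 there and at 22.7 in sub-cluster 7.

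Pairwise co-detection was compared with the product of the shares of cells holding each gene. The shares were taken over all 1587 cells, though *Krt28* was found in 85.8%, *Krt27* in 63.7% and *Krt25* in 25.7% of sub-cluster 8. The ratios therefore do not separate sharing a cell from sharing a sub-cluster. *Krt72* had no UMI at P0 and *Krt26* no row, which left 15 pairs. Of the 10 keratin pairs 8 had ratios of 2 or more, and of the 5 pairs with *Tchh* 0 did. *Krt27* and *Krt28* shared 97 cells where 22.1 were expected, a ratio of 4.39 (3.56 to 5.36). *Krt25* shared 32 of its 43 cells with *Krt28* (ratio 6.00, 4.10 to 8.46) and 25 with *Krt27* (5.18, 3.35 to 7.65). The type II pair *Krt71* and *Krt73* shared 7 cells with a ratio of 8.45. *Krt25* and *Krt71*, of unlike type, shared 9 cells (4.55, 2.08 to 8.64).

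*Krt71* had lower ratios with the more widely detected type I members, 1.34 (0.671 to 2.40) with *Krt27* and 1.54 (0.845 to 2.59) with *Krt28*, and both intervals held 1. All 5 pairs with *Tchh* had intervals that held 1, with ratios from 0.656 (*Krt28*, 11 cells where 16.8 were expected) to 1.61 (*Krt71*, 10 cells). Over the 10 keratin pairs the median ratio was 4.51, and over the 5 with *Tchh* it was 0.820. With each cell thinned to 3500 UMIs the keratin pairs had medians of 7.29 and 8.30 in 2 random draws and the *Tchh* pairs 0.386 and 1.85. All 10 keratin pairs were then at 2 or more in both draws, and of the *Tchh* pairs 0 of 5 in the first and 2 of 5 in the second. In the first draw *Krt71* had a ratio of 2.98 (0.811 to 7.62) with *Krt27* and 3.05 (1.23 to 6.28) with *Krt28*, and 52 cells held *Tchh*. The *Tchh* pairs thus differed between draws by more than 1.5 times and are not read further.

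**Figure D3:**
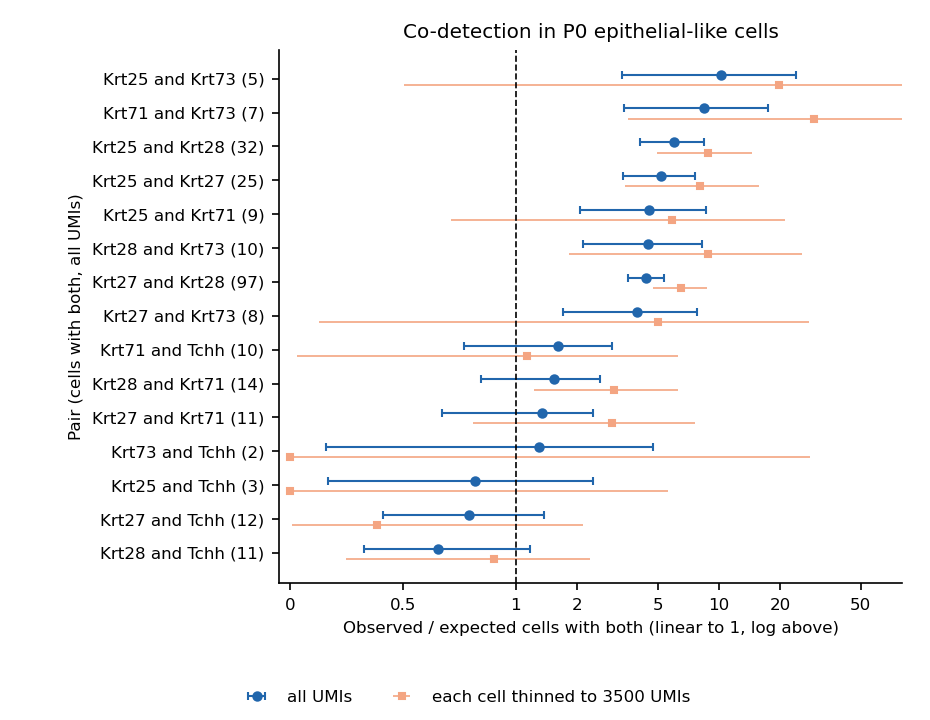
Observed over expected number of P0 epithelial-like cells with both genes of a pair, with exact Poisson 95% intervals on the observed cells, for all UMIs (blue) and with each cell thinned to 3500 UMIs (orange). The axis is linear up to 1 and logarithmic above, and the thinned intervals of *Krt73* with *Krt25* and with *Krt71* run past its end. With all UMIs the 4 lowest ratios include *Tchh* with *Krt28*, *Krt27* and *Krt25*, and *Krt25* with *Krt73* is highest at 10.3.

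Since filaments need both types, cells were grouped by the type of the members they held. Type I members alone were found in 265 cells, both types in 23, type II alone in 61, *Tchh* alone in 111 and none in 1127. The groups count the listed members only, and other keratins were present. The type II keratin *Krt5* was found in 94.3% of cells with type I members alone. The type I keratin *Krt14* was found in 100% of cells with type II members alone. Over all cells there were 1609 type I and 356 type II UMIs, a ratio of 4.52, which was 7.38 without the 5 cells with the most member UMIs. Of the cells with type I alone, 35.5% lay in sub-cluster 8, and 1.64% of those with type II alone. The groups differed in depth, with medians of 10528, 22518, 13655, 14259 and 8843 UMIs per cell in the order given.

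High levels of both types met in 7 cells, a group set apart after the values had been seen by at least 5 UMIs of each type. They held 68.3% of all type II UMIs and 23.6% of the type I UMIs, and 6 of them lay in sub-cluster 8. The rule picks cells by these same UMIs and is not scaled by depth, so the shares follow in part from it. In these cells *Krt25* ran from 0 to 55 UMIs (median 16), *Krt27* from 0 to 23 (median 4), *Krt28* from 6 to 64 (median 23), *Krt71* from 0 to 69 (median 19) and *Krt73* from 0 to 15 (median 3). *Tchh* was found in 2 of the 7. Their depth ran from 4708 to 89784 UMIs and none was called a doublet. The deepest, in sub-cluster 4, had 51 type I, 27 type II and 10 *Tchh* UMIs.

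The 94 cells of sub-cluster 8 with type I members alone had a median of 5 *Krt28* UMIs (highest 83), and 22 of them held *Krt25*. The shaft keratin *Krt35* had 387 UMIs in 23 of these cells and 0 in the 7 cells with both types, and the metallothionein *Mt4* had 162 UMIs in 30 cells and 0. The 7 cells are too few for shares of cells to be compared, since 0 of 7 allows up to 41.0%. That is above the 24.5% (*Krt35*) and 31.9% (*Mt4*) of the 94 cells. The 7 cells were deeper (median 26619 against 8415.5 UMIs), and counted by UMIs *Krt35* was at least 33.9-fold and *Mt4* at least 14.2-fold lower in them (3 counts over the group as the limit). These bounds cover counting error only, not the spread between cells. One cell, of sub-cluster 4, gave 37.9% of the UMIs of the 7, and with the 6 cells of sub-cluster 8 alone the bounds were 21.0-fold and 8.80-fold. *Msx1* stood at 292 against 16.9 CPM, in 53 of 94 and 3 of 7 cells. *Lef1*, a Wnt effector of the matrix, was at 153 against 21.1 CPM, in 54 of 94 and 3 of 7 cells. *Gata3*, a transcription factor required for the inner root sheath, was found in all 7 cells and was at 346 against 275 CPM, a log2 difference of 0.32 (-0.03 to 0.67).

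Higher in the 7 cells were *Krt75*, the companion layer keratin (190 against 8.87 CPM, in 4 of 7 and mostly in 1 of them), *Calm4*, a calmodulin-like protein of differentiating keratinocytes (583 against 22.2, in all 7), *Dmkn* (2103 against 110, in all 7) and *Lgals3* (439 against 18.9, in 6). *Krt79* was at 2184 against 51.0 CPM, but 76.4% of its UMIs came from 1 cell, and *Sox9*, a factor of the outer root sheath and stem cells, had 95.5% of its UMIs in 1 cell. With 7 cells from 1 library these values are descriptions of those cells.

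**Figure D4:**
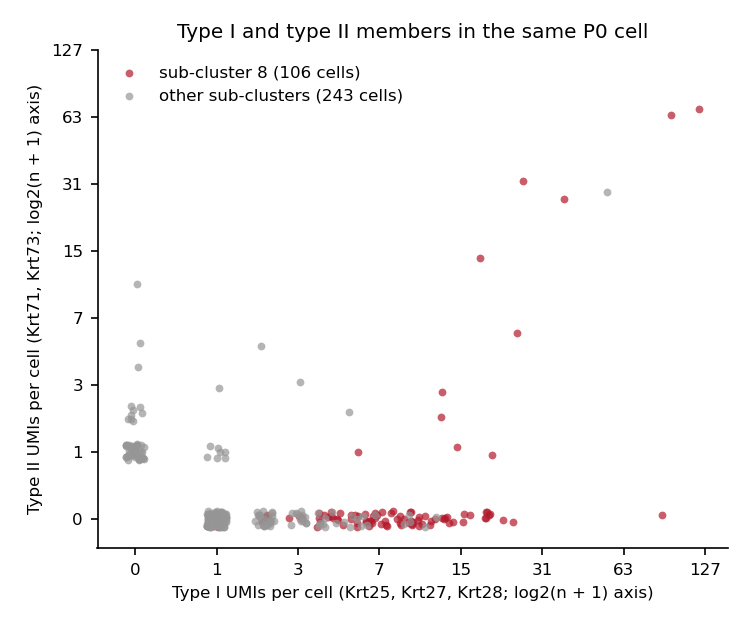
Type I (*Krt25*, *Krt27*, *Krt28*) against type II (*Krt71*, *Krt73*) UMIs in each P0 epithelial-like cell with a keratin member, on log2(n + 1) axes with a small random shift. Red marks the 106 such cells of sub-cluster 8 and grey the 243 others. Cells with type I alone form a row along the bottom and those with type II alone one at the left. Of the 23 cells with both types, 7 had at least 5 UMIs of each, a limit set after the values were seen. The others had fewer of 1 or both types and lie between.

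The transcriptome around the members was described by comparing the 135 P0 epithelial-like cells with at least 2 members (with) to the 1127 with none (without). The 325 cells with exactly 1 member were kept apart. Cells with members were deeper (median 11927 against 8843 UMIs per cell), and 4 of 135 against 45 of 1127 were called doublets. The part of depth in the result was not tested. Of the 135, 76 lay in sub-cluster 8 (56.3%), where 67.3% of cells qualified (57.8 to 75.8). Among 10316 other genes with at least 50 UMIs, 38 (0.368%) were at least 2-fold higher in cells with members and 79 (0.766%) at least 2-fold lower. These counts moved with the settings, from 9 and 5 with 1 member as the rule to 211 and 842 after thinning to 3500 UMIs (closing section). The median over all genes was -0.05 on the log2 scale.

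The genes highest in cells with members included 3 of the matrix list (*Msx1*, *Msx2*, *Dlx3*), 2 of the other inner root sheath genes (*Cux1* and again *Dlx3*) and 1 shaft keratin, *Krt35*. *Krt35* stood at 180 CPM with and 7.12 CPM without members, a log2 difference of 3.47 (3.30 to 3.65). *Msx1* was at 106 and 1.38 CPM (3.34, 3.17 to 3.52), and found in 37.8% and 1.51% of cells. *Mt4* (2.67), the tight junction claudin *Cldn10* (2.25), *Msx2* (2.01), the metallothionein *Mt2* (1.98), *Dlx3* (1.71) and *Odc1*, which makes putrescine (1.55), came next. *Alox12e* (1.55), a lipoxygenase, *Krt75* (1.52), *Prnp* (1.48), *Cux1* (1.47), a homeodomain factor of the inner root sheath, and the Wnt ligand *Wnt5a* (1.42) followed.

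One gene among the 15 rested on a single cell. *Ccer2* had 442 CPM with and 39.3 CPM without members (3.20), but 99.1% of its UMIs in cells with members came from 1 cell, and it was found in 6.67% and 5.86% of cells. With the groups formed from the keratins alone it was lower with members (-1.60). *Krt75* also leaned on 1 cell, which held 65.5% of its UMIs with members, and without the 5 cells with the most member UMIs its difference was 0.38, under 2-fold.

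The lowest included suprabasal keratins and globins. The suprabasal keratins *Krt1* (161 with and 1348 CPM without members, -2.99, -3.13 to -2.86) and *Krt10* (202 and 1529 CPM, -2.86) were lower in CPM, though *Krt10* was found in 61.5% of cells with and 60.5% without members and *Krt1* in 32.6% and 39.8%. Also lower were *BC100530* (-2.33), *Stfa3* (-2.26) and *Stfa1* (-2.17), which encode stefin A protease inhibitors, *Igfbp2* (-1.79), the protease *Tmprss4* (-1.74), *Endou* (-1.72), *Tppp3* (-1.72), *Npl* (-1.68) and *Atf3* (-1.68), a stress-response factor. The globins *Hbb-bt* (-3.69), *Hba-a1* (-3.30), *Hba-a2* (-3.25) and *Hbb-bs* (-2.99) were lower in CPM, yet *Hbb-bs* was found in 83.7% of cells with and 77.7% without members. Of the 7 red cell markers listed, 4 had enough UMIs and 3 were at least 2-fold lower, *Hbb-y* and *Hba-x* had 0 UMIs, and the list summed to 232 and 2336 CPM. Their part in the result was not tested. When 1 member was enough to count a cell as with members, all 11 of the lowest genes other than globins were under 2-fold, with *Krt1* at -0.45 and *Krt10* at -0.59, as were 6 of the 15 highest. Cells with *Tchh* alone, which that rule adds, had 2628 CPM of *Krt1* and 2603 CPM of *Krt10*, above the cells with no member.

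Outside sub-cluster 8 (59 cells with, 1121 without) 14 of the 15 highest genes were still above 0 and 8 at least 2-fold, among them *Ccer2* and *Krt75*, which leaned on 1 cell each. These cells were also part of the comparison that chose the 15 highest and 15 lowest genes. The counts outside sub-cluster 8 are therefore partly set by that choice and are a description. The differences included *Krt35* at 2.18, *Msx1* at 1.01 and *Mt4* at 1.28, while *Dlx3* was at 0.19 (-0.15 to 0.53) and *Prnp* at -0.17. All 15 lowest genes were at least 2-fold lower there. Inside sub-cluster 8 only 6 cells had no member, too few for the values to be read.

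**Figure D5:**
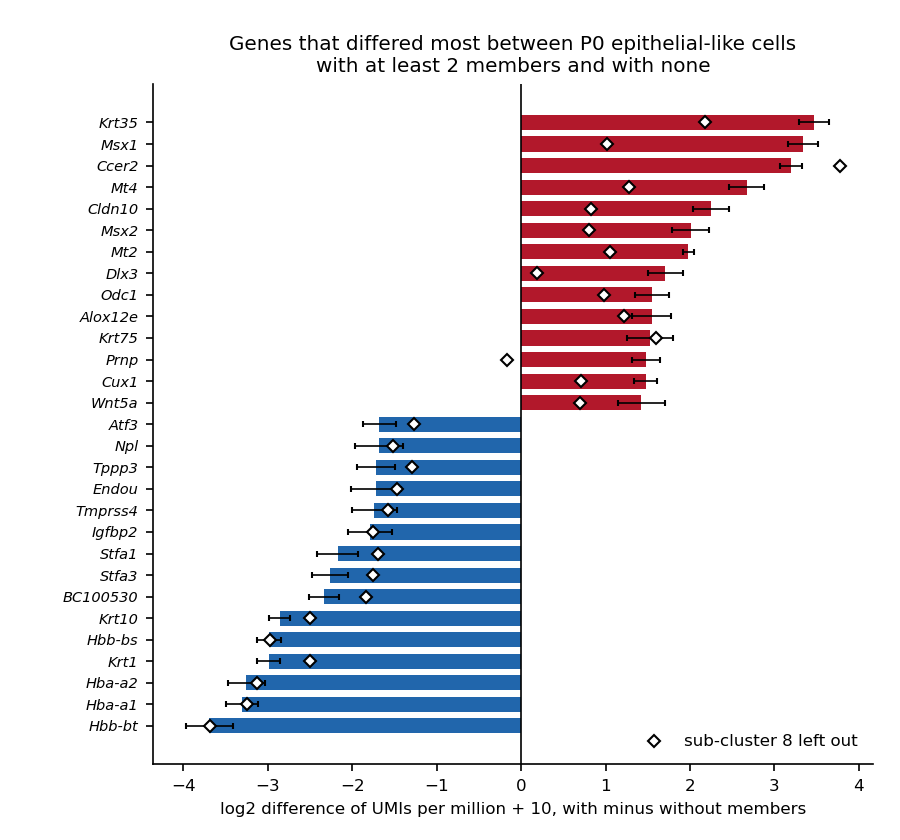
Log2 difference (CPM plus 10) between P0 epithelial-like cells with at least 2 members and with none, for 14 of the 15 highest (red) and the 15 lowest (blue) genes, with counting intervals. Diamonds give the same difference with sub-cluster 8 left out. *Krt35* is highest at 3.47, *Hbb-bt* lowest at -3.69, and the diamonds of *Prnp* and *Dlx3* lie near 0.

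Gene lists of the follicle were described in the same comparison. Of the other inner root sheath genes, 6 of 9 in the table had enough UMIs, 2 were at least 2-fold higher (*Cux1* and *Dlx3*) and 0 lower. *Gata3* differed little (205 with and 192 CPM without, 0.10, -0.03 to 0.23) and *Prdm1* was at 11.2 and 5.98 CPM (0.41). *Casp14* was lower but under 2-fold, with 3 UMIs in cells with and 144 in cells without members (-0.91, -1.12 to -0.69). The transglutaminase *Tgm3*, which crosslinks trichohyalin, was at 1.60 and 4.98 CPM (-0.37), and *Padi3*, which citrullinates it, was under the minimum with 2 and 6 UMIs. Of the crosslinking enzymes 2 of 8 had enough UMIs, *Tgm3* and *Tgm5* (24.5 and 32.7 CPM, -0.31), and with 10 added a level as low as that of *Tgm3* could not pass 2-fold lower. Of the fused-type S100 relatives of *Tchh*, *Flg* alone had enough UMIs, with 0 with and 96 without members, the latter in 7 of 1127 cells, and *Flg2* and *Crnn* had 0.

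Of the matrix genes 3 of 8 were at least 2-fold higher (*Msx1*, *Msx2*, *Dlx3*), with a list median of 0.87. *Hoxc13*, which drives hair keratin genes, was at 67.0 and 31.3 CPM (0.90) and *Shh* at 75.8 and 37.8 (0.84), while *Lef1* was at 78.6 and 63.7 (0.27). Of the hair shaft keratins 1 of 4 was higher, *Krt35*, and the others were near 0 (*Krt32* at 0.00, *Krt33a* at -0.06 and *Krt34* at -0.11 on the log2 scale). Of the basal epidermal genes 3 of 8 were at least 2-fold lower (*Krt14* by -1.62, *Krt15* by -1.57, *Krt5* by -1.29) and of the suprabasal genes 4 of 9 (*Krt1*, *Krt10*, *Krtdap*, *Ly6d*). Their list medians were -0.91 and -0.80.

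None of the 8 outer root sheath genes, 10 desmosome genes, 16 proliferation genes and 7 Notch genes with enough UMIs passed 2-fold, with list medians of -0.09, -0.02, 0.31 and -0.13. In the BMP list 2 of 12 did (*Msx1* and *Msx2*, median 0.33) and in the Wnt list 1 of 8 (*Wnt5a*, median -0.04). Markers of other cell types were counted too. Dermal markers summed to 2281 CPM with and 2958 without members, with 1 of 10 at least 2-fold lower (*Postn*), and *Dcn* at 841 against 499. Melanocyte markers summed to 71.0 and 26.4 CPM, with *Pmel* and *Dct* of 4 at least 2-fold higher (1.08 and 1.09) and *Tyr* at 0 and 2 UMIs. Their part in the result was not tested.

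Across the 1587 P0 epithelial-like cells, the genes of 10783 whose level went most with the summed members included *Msx1* (Pearson r 0.53), *Msx2* (0.45), *Cldn10* (0.45), *Dlx3* (0.43), *Mt2* (0.42), *Cux1* (0.42), *Mt4* (0.37), *Rexo2* (0.35) and *Mt1* (0.34). Cells share 1 library and differ in depth, so these are descriptions. These genes also led for the keratins without *Tchh*, with *Msx1* at 0.55. With *Tchh* alone they had r between -0.06 and 0.03. The genes that went most with *Tchh* were weakly related to it, from *Ahnak2* (0.20) and *Klf4* (0.19) to *Krtdap* (0.16) and *Ly6d* (0.16), and these had r of -0.21, -0.16, -0.28 and -0.27 with the summed keratins. Among the members, *Krt27* and *Krt28* went together most (0.57), then *Krt25* and *Krt71* (0.49), and *Tchh* had r between -0.03 and 0.03 with every keratin.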

How the data were processed

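The authors aligned the droplet-based 3′ reads and counted UMIs with Cell Ranger 2.2.0 on mm10, kept cells with at least 1750 genes, and deposited a natural log of each gene's UMIs, scaled to 10000 per cell with 1 added. All 48197283 values above 0 came back as whole UMIs within 0.001. The table holds more cells than the study states. Libraries held 53334740 (E13.5), 66239195 (E16.5) and 46599806 (P0) UMIs.

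Each library was clustered alone (scanpy 1.11.5, 2000 variable genes, 30 components, 15 neighbours, Leiden resolution 1) without the members. Classes were named from marker lists, with at least 3 markers high. Scrublet called 0, 84 and 106 doublets in the E13.5, E16.5 and P0 libraries. None was removed, and the E13.5 call was not relied on.

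Differences are log2 of CPM plus 10 on UMIs summed over cells, over genes with at least 50 UMIs. The calculation was tested on simulated data. The 15 highest and 15 lowest genes, the 10 most like the members across cells and the listed genes are named, except 1 gene that is not reported here. The members and lists were chosen with earlier results of these data known. Alternatives changed clustering, cell filters, thinning, the member rule, the added CPM and the weighting.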

Additional observations from a re-analysis of the deposited data

How the results depend on the processing

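No paired analysis was possible because each stage was 1 library with no replicate number. Resolutions of 0.5 and 1.5 and leaving out doublets left the summed level, the shares, the pair ratio, the type ratio and the counts of genes within counting error or 1.5 times. With a minimum of 2500 genes per cell, 33.2% of P0 epithelial-like cells held at least 1 member and 10.3% at least 2 (29.0% and 8.51% as reported), and the log2 difference to other cells was 2.00. Thinning to 3500 UMIs gave 15.3% and 3.72%, and 211 higher and 842 lower genes from 59 cells with members. Calling cells with 1 member gave 9 and 5 genes, with 3 members (34 cells) 115 and 307. Adding 1 CPM in place of 10 gave 110 and 426 genes and a log2 difference of 2.98. Weighting each cell equally gave 67 and 195 genes and 2.48. The next alternatives were chosen after seeing the data. Groups formed from the keratins alone gave 62 and 155 genes. Without the 5 cells with the most member UMIs the summed level was 75.6 CPM, the difference 1.94 and the type I to type II ratio 7.38. Without the sub-clusters led by muscle and collagen genes they were 118 CPM and 2.52. Of the 30 genes named by size, 29 kept their direction under all 12 alternatives run on them and 12 stayed at least 2-fold. *Ccer2* was the exception, at -1.87 thinned, -1.56 with 3 members and -1.60 with the keratins alone, with 99.1% of its UMIs in 1 cell. With 1 library per stage the spread between animals is unknown.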

Other observations

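Outside the P0 epithelial-like class a few cells held many keratin UMIs. A dermal-like cell of 4609 UMIs had 13 *Krt71*, 6 *Krt25*, 3 *Krt27* and 2 *Krt73* UMIs, and a melanocyte-like cell of 33394 UMIs had 19 *Krt28* UMIs. An endothelial-like cell of 19114 UMIs had 15 *Krt28* UMIs. The 6 cells with the most member UMIs outside the class took *Krt28* there from 118 to 64 and *Krt71* from 37 to 24 UMIs when left out, and *Tchh* stayed at 91. Of the cells outside the class, 8 held both *Krt27* and *Krt28*, where the product of their shares gave 0.41. The source of these UMIs was not tested.

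At E13.5 the *Tchh* UMIs outside the epithelium were spread over many classes, with 7.87 CPM in dermal-like, 7.38 in muscle-like, 5.28 in erythroid-like, 4.85 in neural-like and 2.34 in endothelial-like cells. In the E16.5 library it was 9.08 CPM (8.14 to 10.1) in the dermal-like class, 2.10 (1.15 to 3.52) in the endothelial-like and 0.866 (0.105 to 3.13) in the immune-like class. At E16.5 the 3 *Krt72* UMIs of the epithelial-like cells were all in 1 cluster of 87 cells, which also had the highest *Tchh* level of that stage's epithelial-like clusters (25.7 CPM, 18.1 to 35.4).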
